A study of Aspergillus nidulans and Aspergillus wentii with 48 samples.

Results

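The genes described here are 95 of the 12659 *Aspergillus wentii* genes in the deposited table (23647 genes in both species of the series). They were chosen by measured values: in the wild-type strain CBS141173, their transcript level was raised by NaCl and sorbitol given together and was not raised by either given alone. For each gene and treatment, L is the log2 ratio of the mean RPKM (reads per gene length and library total) of the treated libraries plus 1 to the mean RPKM of the untreated libraries plus 1. A gene was taken if L was over 1 for NaCl + sorbitol, under 0.4 for sorbitol and under 0.4 for NaCl. The rule used all 12 CBS141173 libraries, so values in that strain are given as a description, and tests were run only in the 12 libraries of the second strain, ′c *gfdB*, which the rule did not use.

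Mycelia of both strains, grown for 65 h, were moved for 0.5 h into fresh minimal broth with 1 M NaCl + 2 M sorbitol, with 2 M sorbitol, with 1 M NaCl or with neither (untreated), and RNA was sequenced from 3 cultures of each. ′c *gfdB* is CBS141173 carrying 1 copy of the *A. nidulans* gene *gfdB*, under its own promoter and terminator, with a hygromycin resistance marker, and CBS141173 is an osmophilic strain without *gfdB*. Only 1 transformed strain was sequenced, so an effect of the transgene and any other difference between the strains cannot be told apart. The 2 *A. nidulans* strains of the series, THS30 and Δ*gfdB*, were not tested here.

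Sorbitol is an uncharged osmolyte that draws water out of the hypha, while NaCl adds ion toxicity to the same loss of water. Filamentous fungi answer hyperosmotic stress through a mitogen-activated protein kinase cascade, and build up glycerol as a compatible solute. The product of *gfdB* is a glycerol-3-phosphate dehydrogenase, an enzyme on the route to glycerol. Plasma membrane H+-ATPases set up the proton gradient that fungal exporters of sodium and importers of nutrients draw on.

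Library totals were between 11758085 and 32274107 reads in the 24 *A. wentii* libraries. Pearson's r between replicates across genes, a description since genes are not independent, was at least 0.964 in 6 of the 8 groups, against 0.932 to 0.958 in CBS141173 sorbitol and 0.894 to 0.975 in ′c *gfdB* NaCl. The 95 genes showed the same unevenness. They took 3.97%, 3.62% and 3.82% of the reads in CBS141173 NaCl + sorbitol and 1.77%, 2.00% and 1.92% in NaCl. Under sorbitol they took 2.21% in replicate 1 and 0.952% and 0.971% in replicates 2 and 3, against 1.93%, 2.12% and, in replicate 3, 1.12% in untreated CBS141173. CBS141173 sorbitol replicates 2 and 3 and untreated replicate 3 thus held less of this RNA than the other libraries of their groups. In ′c *gfdB* the shares were 4.72%, 4.63% and 4.75% under NaCl + sorbitol, 3.55%, 3.89% and 3.84% under sorbitol, 1.03%, 3.25% and 1.95% under NaCl, and 2.15%, 2.22% and 2.25% in untreated cultures. Apart from NaCl, the groups of ′c *gfdB* did not overlap.

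Within CBS141173 the 95 genes had a median L of 1.18 for NaCl + sorbitol (range 1.00 to 2.65), against -0.09 for sorbitol (range -1.72 to 0.40) and -0.03 for NaCl (range -1.01 to 0.38). The medians over all genes were 0.00, 0.06 and 0.01. Libraries of the combination lay above every untreated library for 93 of the 95 genes (22.8% of all genes), a comparison that the rule used. The exceptions were ASPWEDRAFT_61986 and ASPWEDRAFT_656478.

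Membership rested partly on the uneven libraries. CBS141173 sorbitol replicate 1 was the highest of the 3 sorbitol libraries for 82 of the 95 genes, beside 30.9% of all genes, and untreated replicate 3 was the lowest of its group for 69, beside 35.5% of all genes. In single libraries, the median log2 ratio of the 95 genes to the untreated mean was 0.39 in sorbitol replicate 1, -0.69 in replicate 2 and -0.41 in replicate 3. With replicate 1 as the only sorbitol library, 49 of the 95 genes still met the rule. Without untreated replicate 3, 57 did, and with both changes 27 did. The part of these libraries in the low L for sorbitol was not tested further, and in bulk mycelial RNA, fewer cells of a type and less RNA per cell cannot be told apart.

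**Figure D1:**
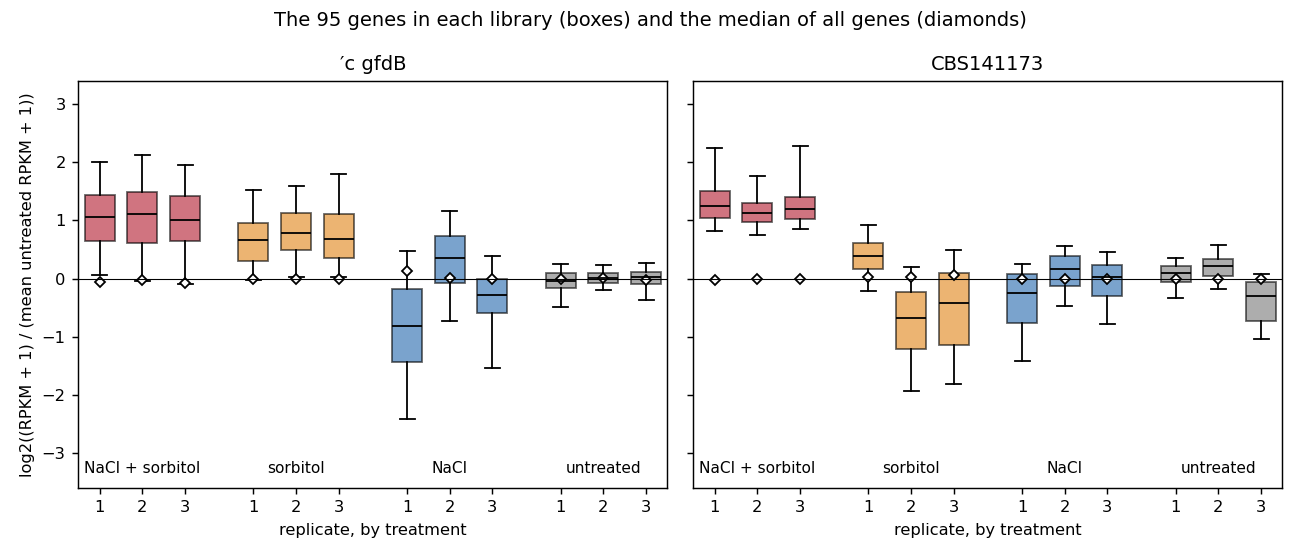
Boxes give the log2 ratio of RPKM plus 1 to the mean untreated RPKM plus 1 of the same strain for the 95 genes in each library (box, quartiles; line, median; whiskers, 5th and 95th percentiles), and diamonds the median of all genes. In ′c *gfdB* the medians are 1.01 to 1.12 under NaCl + sorbitol and 0.67 to 0.78 under sorbitol; in CBS141173 they are 1.13 to 1.25 under NaCl + sorbitol and -0.69 to 0.39 under sorbitol.

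At the limits of the rule the members and the genes left out were close. For NaCl + sorbitol, the members nearest the limit of 1 were ASPWEDRAFT_138454, ASPWEDRAFT_22604 and ASPWEDRAFT_167521 (L of 1.002, 1.004 and 1.005), and the nearest genes outside, ASPWEDRAFT_40621, ASPWEDRAFT_37848 and ASPWEDRAFT_187504, each had 0.999. For sorbitol, ASPWEDRAFT_167521, ASPWEDRAFT_49916 and ASPWEDRAFT_42534 lay inside at 0.395, 0.386 and 0.381, and ASPWEDRAFT_71034, ASPWEDRAFT_112687 and ASPWEDRAFT_22247 outside at 0.412, 0.415 and 0.424. For NaCl, ASPWEDRAFT_45357, ASPWEDRAFT_180691 and ASPWEDRAFT_166393 lay inside at 0.381, 0.369 and 0.369, and ASPWEDRAFT_684615, ASPWEDRAFT_178936 and ASPWEDRAFT_72803 outside at 0.402, 0.425 and 0.446. In all, 783 genes had L over 1 for NaCl + sorbitol in CBS141173 and 266 of them were under the limit for NaCl.

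In ′c *gfdB*, calls among the 95 genes were more often higher than lower under the combination and under sorbitol. Under NaCl + sorbitol against untreated, 60 of the 95 genes were called higher and 0 lower by edgeR's quasi-likelihood test (adjusted p under 0.05 over all genes tested and a change of over 2-fold), where 9.24% of the 10534 genes tested were called higher and 11.2% lower. At an adjusted p under 0.05 and any fold, 62 were higher and 0 lower (14.1% and 22.3% of all genes). At an unadjusted p under 0.05, 73 were higher and 0 lower, a threshold at which no count over all genes was made. DESeq2 called 62 higher and 0 lower, beside 1181 and 1064 among all genes. The number of genes that DESeq2 tested was not recorded, so its counts over all genes, here and below, are not shares. Without untreated replicate 2, edgeR called 36 higher, with no count made over all genes. The median L of all 95 genes was 1.13, beside -0.03 over all genes, and the lowest library of the combination lay above the highest untreated library for 83 of them (22.4% of all genes).

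Under sorbitol against untreated, 29 of the 95 genes were called higher and 1 lower, beside 12.3% and 9.26% of all genes. The higher count was 19 without untreated replicate 1, and the lower count was 0 without that library or without sorbitol replicate 1. No count over all genes was made in these fits. The median L of the 95 genes was 0.72, beside 0.01 over all genes, and 76 of them had L over 0.4 (23.7% of all genes), the limit that none passed in CBS141173. Of the 29 genes called higher under sorbitol, 28 were also called higher under the combination, as were 5.64% of all genes in both. These comparisons share the untreated libraries. In total 32 genes were called higher under the combination alone, which does not show that the treatments differed.

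Under NaCl against untreated, 3 of the 95 genes were called higher and 12 lower, beside 19.9% and 7.64% of all genes. The count of lower calls moved with single libraries. It was 25 without NaCl replicate 2, 7 without NaCl replicate 3 and 6 without untreated replicate 1. Calls over all genes were not counted in those fits, so a shift across all genes cannot be told apart from one in this set. The median log2 ratio of the 95 genes to the untreated mean was -0.82, 0.36 and -0.27 in the 3 NaCl libraries, so the libraries lay on both sides of the untreated level.

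The direct comparison of the combination with each stressor in ′c *gfdB* gave 4 calls against sorbitol and 64 against NaCl. Against sorbitol, 4 of the 95 genes were called higher and 0 lower (0.627% and 6.48% of all genes), with 5 and 0 at any fold (1.76% and 9.12% of all genes). At an unadjusted p under 0.05 the counts were 16 and 1, with no count made over all genes. DESeq2 called 5 higher and 0 lower, beside 118 and 655 among all genes. For 45 of the 95 genes every combination library lay above every sorbitol library (15.5% of all genes), so the small number of calls does not show that the treatments acted alike. The edgeR count was between 0 and 8 when single libraries were left out, the highest without NaCl replicate 1. It was 0 without sorbitol replicate 1 or 2. Calls over all genes were not counted in these fits. Against NaCl, 64 genes were called higher and 0 lower (8.92% and 23.8% of all genes). At an unadjusted p under 0.05 the counts were 81 and 2, again with none made over all genes. DESeq2 called 69 higher and 0 lower, beside 1253 and 2338 among all genes. The genes called higher in the combination than in untreated, sorbitol and NaCl cultures were the same 4, or 0.294% of all genes tested. The interaction of the 2 stressors, which asks whether the combination departs from the sum of the single effects on the log2 scale, was called positive for 15 of the 95 genes and negative for 2, beside 12.3% and 22.5% of all genes. Without NaCl replicate 2, 42 were called positive. No count over all genes was made in that fit, so a rise across all genes cannot be told apart from a rise in these genes.

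The rule itself, applied to ′c *gfdB*, was met by 34 genes (0.269% of all genes), and by 0 of the 95. It was met by 0 to 2 of the 95 when single ′c *gfdB* libraries were left out. Of the 95, 53 had L over 1 for the combination in ′c *gfdB* (5.68% of all genes), but each of those had L of at least 0.4 for sorbitol or for NaCl.

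**Figure D2:**
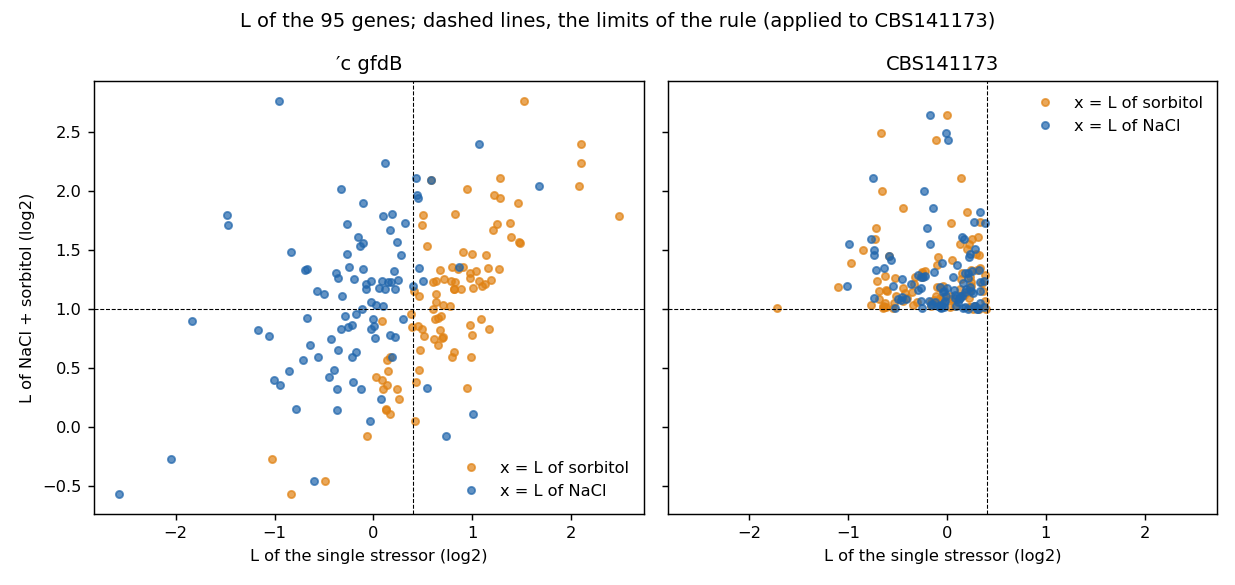
Each of the 95 genes is drawn at its L for NaCl + sorbitol (vertical axis, log2) against its L for sorbitol (orange) and for NaCl (blue) in ′c *gfdB* (left) and CBS141173 (right), with the limits of the rule dashed. The right panel is filled by construction; in ′c *gfdB*, 76 genes lie right of the sorbitol limit and 13 right of the NaCl limit (23.7% and 31.5% of all genes).

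**Figure D3:**
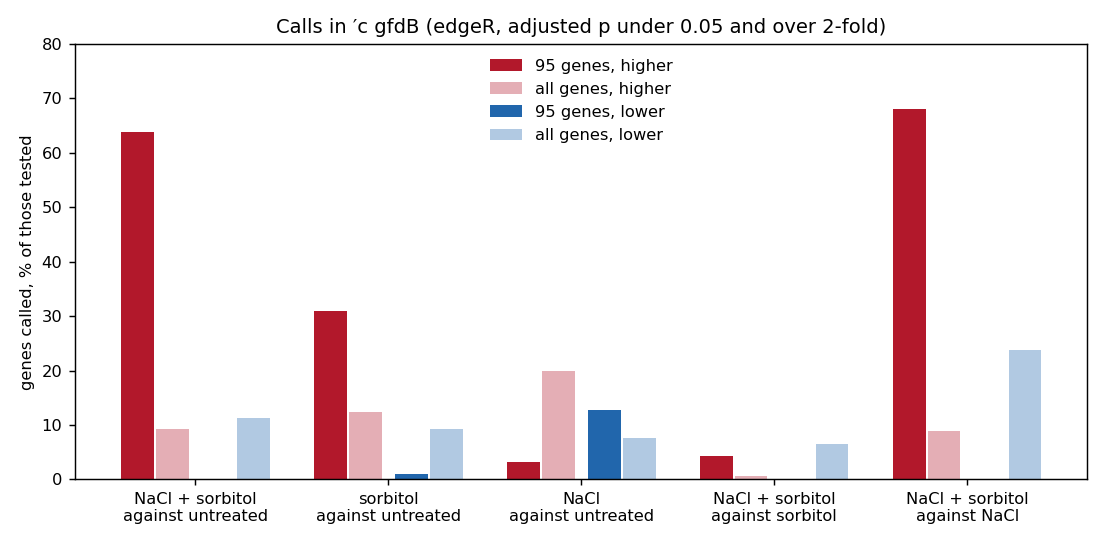
Bars give the percentage of tested genes called higher (red) or lower (blue) in 5 comparisons within ′c *gfdB*, for the 95 genes (dark; 94 tested) and all genes (pale; 10534 tested). Under NaCl + sorbitol 63.8% of the tested genes of the set were called higher, beside 9.24% of all genes, and under sorbitol 30.9%, beside 12.3%.

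Of the 95 genes, 94 passed the filter on low counts in ′c *gfdB*. The gene left out was ASPWEDRAFT_34275, which is described with the weakly transcribed genes further on. The calls in ′c *gfdB* were also counted in the members that met the rule without some or all of the uneven CBS141173 libraries. Among the 49 genes that met it with sorbitol replicate 1 as the only sorbitol library, 32 were called higher under the combination in ′c *gfdB*, 14 under sorbitol and 0 under NaCl. Among the 57 that met it without untreated replicate 3, the counts were 41, 19 and 1. Among the 27 that met it with both changes, the counts were 19, 7 and 1. The shares of tested genes called higher under the combination were 66.7%, 73.2% and 73.1%, beside 63.8% of all members tested and 9.24% of all genes. Under sorbitol they were 29.2%, 33.9% and 26.9% (12.3% of all genes), and under NaCl 0%, 1.79% and 3.85% (19.9% of all genes). These subsets share genes, and the shares were not tested against each other.

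Names or functions were at hand for 3 of the 95 genes, from orthologue lists that the study compiled and from its set of genes measured by RT-qPCR. ASPWEDRAFT_173501 is listed as an orthologue of *A. nidulans pmaA*, the plasma membrane H+-ATPase. Its level was 2409.8, 1767 and 2533 RPKM under NaCl + sorbitol in ′c *gfdB*, 1489, 1508 and 1929 RPKM under sorbitol, 407, 1179.8 and 625 RPKM under NaCl, and 788, 1025 and 805 RPKM in untreated cultures. The combination and sorbitol libraries lay above all untreated libraries, and the NaCl libraries on both sides of them. The combination raised it by 1.40 ± 0.36 on the log2 scale (SE; edgeR, adjusted p = 0.0112, n = 3 libraries each), a call that held without each library in turn, and the value under sorbitol was 0.93 ± 0.36 (adjusted p = 0.0567). In CBS141173 it had 1526, 1086 and 1412 RPKM under NaCl + sorbitol, 978, 499 and 545 RPKM under sorbitol, 673, 751 and 737 RPKM under NaCl, and 470.0, 753 and 489.7 RPKM in untreated cultures. It was the only member of the set among the 24 genes of the osmotic stress list. The list names 2 further orthologues of *pmaA*. ASPWEDRAFT_114988 averaged 0.46 RPKM under NaCl + sorbitol and 1.10 RPKM untreated in ′c *gfdB*, a log2 fold change of -1.23 (edgeR, adjusted p = 0.00837). Under sorbitol it averaged 2.37 RPKM, a log2 fold change of 1.12 (edgeR, adjusted p = 0.0079), and under NaCl 5.81 RPKM. In CBS141173 its L was 0.07 for NaCl + sorbitol, 1.38 for sorbitol and 2.00 for NaCl. ASPWEDRAFT_66599 stayed at or under 0.294 RPKM in the mean of every group.

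ASPWEDRAFT_37490 is listed by the study as an NADP-coupled glycerol dehydrogenase, an enzyme that reduces dihydroxyacetone to glycerol. It is 1 of 15 *A. wentii* genes listed for the same *A. nidulans* genes and the only member among them. In CBS141173, ASPWEDRAFT_45133, ASPWEDRAFT_36695, ASPWEDRAFT_118731 and ASPWEDRAFT_101893 also had L over 1 for NaCl + sorbitol (1.505, 1.441, 1.164 and 1.101). Each of them was over the limit of 0.4 for sorbitol. The rest were under 1, and ASPWEDRAFT_104176 had L of 0.27 for NaCl + sorbitol, 3.17 for sorbitol and 2.88 for NaCl. The levels of ASPWEDRAFT_37490 in ′c *gfdB* were 6.78, 7.27 and 7.04 RPKM under NaCl + sorbitol, 5.34, 7.48 and 5.52 RPKM under sorbitol, 1.69, 4.78 and 2.52 RPKM under NaCl, and 3.92, 4.62 and 3.80 RPKM untreated. The groups of the combination and of untreated cultures did not overlap, but the log2 fold change of 0.80 ± 0.33 did not pass the test (edgeR, adjusted p = 0.0755). In CBS141173 it had 11.4, 9.47 and 8.92 RPKM under NaCl + sorbitol, 5.37, 3.22 and 3.54 RPKM under sorbitol, 4.04, 3.47 and 2.52 RPKM under NaCl, and 4.65, 4.45 and 3.57 RPKM untreated. It was 1 of 37 genes on the glycerol metabolism list. Over that list, 4 of the 30 genes tested in ′c *gfdB* were called higher and 3 lower under the combination, 11 and 1 under sorbitol, and 11 and 1 under NaCl, where 9.24% and 11.2%, 12.3% and 9.26%, and 19.9% and 7.64% of all genes were called. The list's median log2 fold changes were 0.37, 0.72 and 1.05 beside -0.12, 0.01 and 0.10 over all genes.

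ASPWEDRAFT_121910, annotated as a protein with a rhodanese domain, was among the genes the study measured by RT-qPCR. Rhodanese domains transfer sulfur. The ′c *gfdB* libraries had 18.9, 19.3 and 16.8 RPKM under NaCl + sorbitol, 16.8, 18.7 and 16.1 RPKM under sorbitol, 3.99, 11.7 and 5.05 RPKM under NaCl, and 8.56, 7.38 and 6.03 RPKM untreated. The combination raised it by 1.35 ± 0.34 and sorbitol by 1.25 ± 0.34 on the log2 scale (edgeR, adjusted p = 0.0100 and 0.0138). In CBS141173 it had 8.15, 6.87 and 6.26 RPKM under NaCl + sorbitol, 5.17, 2.73 and 3.05 RPKM under sorbitol, 3.07, 2.97 and 2.38 RPKM under NaCl, and 2.14, 4.33 and 2.52 RPKM untreated. Both strains were highest under the combination, and sorbitol stood close to the combination in ′c *gfdB*.

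The remaining lists held no other member. Of the 24 osmotic stress genes, 1 of 21 tested was called higher and 4 lower under the combination in ′c *gfdB*, and of the 48 oxidative stress genes, none of which is a member, 6 of 43 were called higher and 2 lower, beside 9.24% and 11.2% of all genes. Under sorbitol the osmotic list had 4 higher and 4 lower and the oxidative list 7 higher and 0 lower (12.3% and 9.26% of all genes), and under NaCl 5 and 1, and 6 and 1 (19.9% and 7.64%). The orthologue of the conidial catalase gene *catA*, ASPWEDRAFT_48635, taken as a marker of conidia, was between 0.209 and 0.850 RPKM in all ′c *gfdB* libraries. The CBS141173 libraries had 0.352, 0.745 and 0.769 RPKM under NaCl + sorbitol, 1.37, 1.91 and 1.60 RPKM under sorbitol, 0.899, 1.03 and 1.21 RPKM under NaCl, and 0.358, 0.529 and 0.772 RPKM untreated. The sorbitol libraries thus lay above the others of that strain at a low level, and the part of this in the members' values was not tested. The paper names this gene as a putative catalase gene raised by sorbitol or NaCl in CBS141173. A change in conidia and a change in its transcription cannot be told apart here.

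The set ranged over a wide span of transcript levels. In the CBS141173 combination its mean RPKM ran between 1.51 and 3962 with a median of 50.5. Over all genes it ran between 0 and 11069 with a median of 10.6. The rule used these levels. A gene needed over 1 RPKM there to meet it, and its pseudocount of 1 lowers L in weakly transcribed genes. The median and the shares of the classes that follow are thus a description. By the untreated level in CBS141173, 25 of the 95 genes were under 5 RPKM, 47 between 5 and 100 RPKM and 23 at 100 RPKM or more, or 0.497%, 0.775% and 1.46% of all genes in those classes. The genes at 100 RPKM or more had a median length of 758 bases, beside 1041 bases over all genes of that class, and the members under 5 RPKM 1296 bases, beside 1191 bases. In ′c *gfdB*, 19 of the 25 weakest (24 tested), 26 of the 47 middle and 15 of the 23 strongest genes were called higher under the combination, beside 14.3%, 7.10% and 8.03% of all genes tested in those classes. Under sorbitol 11, 15 and 3 of them were, beside 24.1%, 8.56% and 4.71%.

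The 10 members with the highest level under the combination in CBS141173 had gene lengths of 322 to 1006 bases and no name in the tables used. Their L in CBS141173, which the rule used, lay between 1.01 and 1.24 for NaCl + sorbitol and between -1.11 and -0.52 for sorbitol. In ′c *gfdB* it lay between 0.38 and 1.80 for NaCl + sorbitol, between 0.43 and 1.16 for sorbitol and between -1.48 and 0.46 for NaCl, and 6 of the 10 were called higher under the combination and 1 under sorbitol. The most abundant, ASPWEDRAFT_26156, had 4222, 3856 and 3809 RPKM under NaCl + sorbitol in CBS141173, 2169, 792 and 788 RPKM under sorbitol, 2248, 2216 and 2181 RPKM under NaCl, and 2276, 2570.5 and 1002 RPKM untreated. Its low libraries were sorbitol replicates 2 and 3 and untreated replicate 3. Its ′c *gfdB* levels were 6563, 5941 and 6141 RPKM under NaCl + sorbitol, 4302, 4902 and 4419 RPKM under sorbitol, 974, 4946 and 2465 RPKM under NaCl, and 2521, 2582 and 2812 RPKM untreated. The combination raised it by 1.26 ± 0.43 on the log2 scale (edgeR, adjusted p = 0.0375), a call that held in only 3 of the 12 fits that left out 1 library.

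ASPWEDRAFT_97459, ASPWEDRAFT_34555, ASPWEDRAFT_105815 and ASPWEDRAFT_166393 are the 4 of these 10 that did not pass the test under the combination in ′c *gfdB*, with log2 fold changes of 0.88 ± 0.34, 0.41 ± 0.33, 0.78 ± 0.35 and 1.20 ± 0.44 (edgeR, adjusted p = 0.0587, 0.348, 0.0979 and 0.0511). ASPWEDRAFT_34555 had 3151, 3278 and 3515 RPKM under NaCl + sorbitol in ′c *gfdB* and 3316, 3806 and 3151 RPKM under sorbitol, against 2655, 2216 and 2764 RPKM untreated. ASPWEDRAFT_37361 was the 1 called under sorbitol, by 1.18 ± 0.39 (adjusted p = 0.0305), and rose by 1.38 ± 0.39 under the combination (adjusted p = 0.0163), and these calls held in 6 and 11 of the 12 fits without 1 library. ASPWEDRAFT_180691, ASPWEDRAFT_113120 and ASPWEDRAFT_56512 rose by 1.25 ± 0.31, 1.09 ± 0.32 and 1.06 ± 0.36 under the combination (adjusted p = 0.00947, 0.0191 and 0.0363). The call of ASPWEDRAFT_56512 held in 3 of the 12 fits without 1 library and that of ASPWEDRAFT_113120 in 8.

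ASPWEDRAFT_183850 stood apart from the others of the 10 most abundant. ′c *gfdB* had 5218, 5836 and 5484 RPKM under NaCl + sorbitol, 1945, 2094 and 2702 RPKM under sorbitol, 295, 865 and 549 RPKM under NaCl, and 2140.1, 1389.8 and 1231 RPKM untreated. The combination lay above all other libraries of the strain and NaCl below all others. It rose by 1.82 ± 0.36 under the combination against untreated (edgeR, adjusted p = 0.00288), by 1.30 ± 0.36 under the combination against sorbitol (adjusted p = 0.0345), and fell by 1.43 under NaCl against untreated (SE 0.36, adjusted p = 0.00663). In CBS141173 it had 2851, 2401 and 2240.4 RPKM under NaCl + sorbitol, 1039, 159 and 327 RPKM under sorbitol, 699.9, 1948 and 1209 RPKM under NaCl, and 1134, 1263 and 889 RPKM untreated.

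The other 3 genes called higher in the combination than in each other group of ′c *gfdB* were ASPWEDRAFT_43755, ASPWEDRAFT_137376 and ASPWEDRAFT_343257. ASPWEDRAFT_43755 had 32.8, 62 and 39.5 RPKM under NaCl + sorbitol, 22, 21.3 and 19.3 RPKM under sorbitol, 7.71, 10.9 and 5.36 RPKM under NaCl, and 8.26, 12 and 10.7 RPKM untreated. Sorbitol lay between the combination and the untreated libraries with no overlap. It rose by 2.14 ± 0.27 under the combination and 1.04 ± 0.27 under sorbitol against untreated, and by 1.10 ± 0.26 under the combination against sorbitol (edgeR, adjusted p = 0.000264, 0.0100 and 0.0182). In CBS141173 it had 46.1, 53.2 and 67.5 RPKM under NaCl + sorbitol, 18.3, 6.47 and 15.6 RPKM under sorbitol, 5.31, 8.44 and 6.63 RPKM under NaCl, and 14.3, 9.64 and 12.3 RPKM untreated.

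ASPWEDRAFT_137376 had 55.6, 33.3 and 69.7 RPKM under NaCl + sorbitol in ′c *gfdB*, 14.4, 19.5 and 31.2 RPKM under sorbitol, 3.47, 3.77 and 2.02 RPKM under NaCl, and 10.3, 5.88 and 4.49 RPKM untreated. The 4 groups of this gene did not overlap. It rose by 2.97 ± 0.41 under the combination and by 1.66 ± 0.39 under sorbitol, and fell by 1.16 under NaCl (edgeR, adjusted p = 0.000361, 0.0065 and 0.0312). ASPWEDRAFT_343257 had 10, 10.4 and 10.2 RPKM under NaCl + sorbitol, 2.57, 2.98 and 3.22 RPKM under sorbitol, 3.14, 4.85 and 0.794 RPKM under NaCl, and 1.15, 1.23 and 2.49 RPKM untreated. It rose by 2.67 ± 0.49 under the combination against untreated and by 1.81 ± 0.47 against sorbitol (adjusted p = 0.00189 and 0.0276), while sorbitol against untreated gave 0.87 ± 0.50 (adjusted p = 0.184). The calls of the combination against sorbitol held in 8 of the 12 fits without 1 library for ASPWEDRAFT_43755, in 7 for ASPWEDRAFT_137376, in 6 for ASPWEDRAFT_343257 and in 5 for ASPWEDRAFT_183850.

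**Figure D4:**
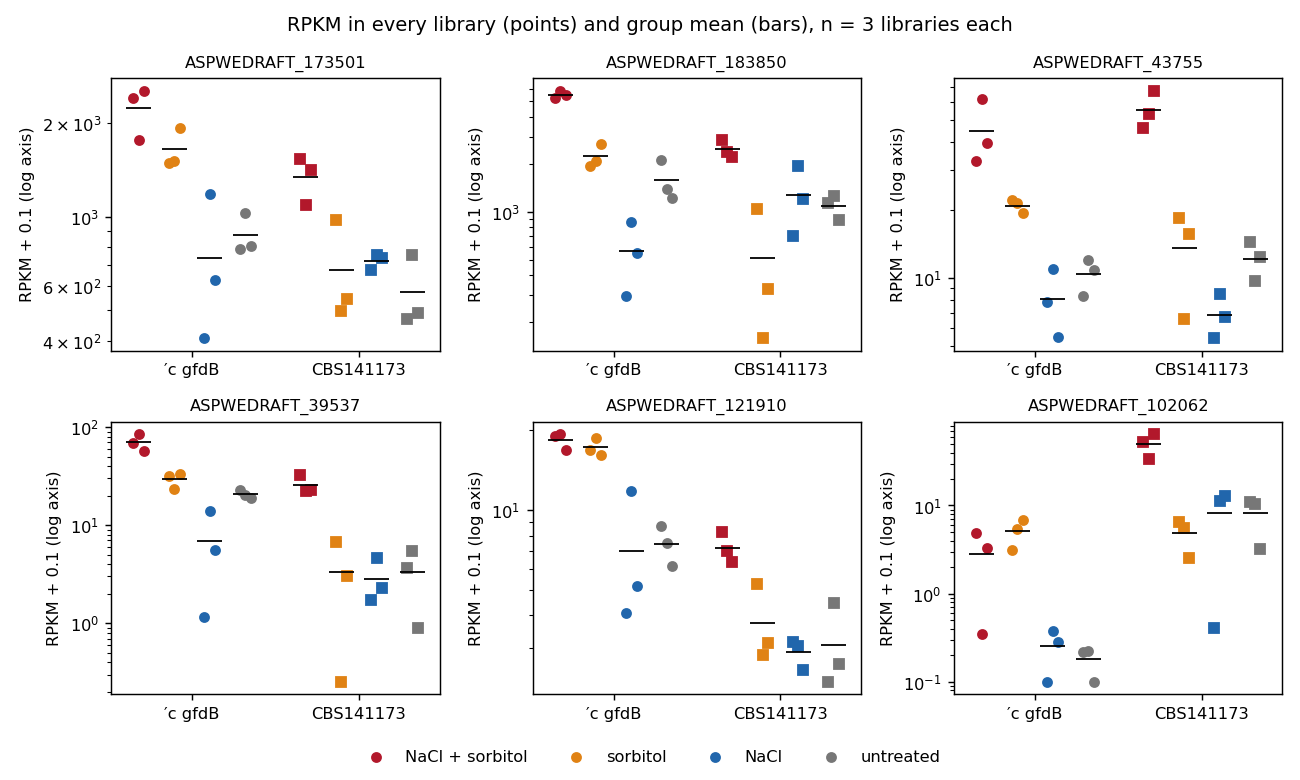
RPKM plus 0.1 on a log axis in every library of ′c *gfdB* (circles, left) and CBS141173 (squares, right), with the treatments coloured in the order NaCl + sorbitol, sorbitol, NaCl and untreated, and group means as bars. In all 6 genes each combination library lies above each untreated library of its strain. The sorbitol libraries overlap those of the combination in ′c *gfdB* for ASPWEDRAFT_173501, ASPWEDRAFT_121910 and ASPWEDRAFT_102062.

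The largest L in CBS141173 was that of ASPWEDRAFT_39537, 2.65 for NaCl + sorbitol. It had 32.4, 22 and 22.5 RPKM under NaCl + sorbitol, 6.65, 0.155 and 2.91 RPKM under sorbitol, 1.61, 4.49 and 2.18 RPKM under NaCl, and 3.60, 5.32 and 0.803 RPKM untreated. Levels in ′c *gfdB* were 68, 84.9 and 56.6 RPKM under NaCl + sorbitol, 31.9, 23.5 and 33.1 RPKM under sorbitol, 1.06, 13.8 and 5.52 RPKM under NaCl, and 22.9, 20.1 and 19 RPKM untreated, above CBS141173 with no overlap except under NaCl. There it rose by 1.78 ± 0.58 under the combination and fell by 1.56 under NaCl (edgeR, adjusted p = 0.0309 and 0.0455). Both calls were sensitive to single libraries, holding in 6 and 2 of the 12 fits.

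Most of the next largest values of L belonged to genes that were nearly silent in ′c *gfdB*. ASPWEDRAFT_102062 (L of 2.50 in CBS141173) had 52.7, 33.9 and 64.8 RPKM under NaCl + sorbitol, 6.38, 5.41 and 2.41 RPKM under sorbitol, 0.306, 11.0 and 12.8 RPKM under NaCl, and 10.8, 10.4 and 3.11 RPKM untreated in CBS141173. The ′c *gfdB* values were 4.82, 0.246 and 3.15 RPKM under NaCl + sorbitol, 3.06, 5.26 and 6.78 RPKM under sorbitol, 0, 0.279 and 0.178 RPKM under NaCl, and 0.115, 0.123 and 0 RPKM untreated. These ′c *gfdB* values rest on 96 reads under the combination and 220 under sorbitol, against 4 in untreated cultures, summed over 3 libraries. The ratio of summed reads per library total was 33.1 for the combination (95% exact interval 12.5 to 123.8) and 63.7 for sorbitol (24.5 to 235.7), where the intervals cover counting error only. Both contrasts were called by edgeR (adjusted p = 0.00463 and 0.00175).

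ASPWEDRAFT_34272 shared its low libraries, with 15.9, 9.05 and 23.3 RPKM under NaCl + sorbitol, 2.33, 2.60 and 0.795 RPKM under sorbitol, 0.150, 3.04 and 3.35 RPKM under NaCl, and 2.70, 2.43 and 1.31 RPKM untreated in CBS141173. In ′c *gfdB* it had 1.68, 0.138 and 1.17 RPKM under NaCl + sorbitol, 0.653, 1.38 and 2.54 RPKM under sorbitol, 0.125, 0.128 and 0.0635 RPKM under NaCl, and 0.0963, 0.103 and 0.163 RPKM untreated. In both genes, replicate 2 was the low library of the combination and replicate 1 the low library of sorbitol in ′c *gfdB*, and replicate 1 the low library of NaCl in CBS141173. ASPWEDRAFT_34272 rose by 3.08 ± 0.76 under the combination and 3.67 ± 0.76 under sorbitol in ′c *gfdB* (edgeR, adjusted p = 0.00851 and 0.0035), although combination and untreated libraries overlapped.

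ASPWEDRAFT_234135, ASPWEDRAFT_233835 and ASPWEDRAFT_44876 were also called higher under both the combination and sorbitol in ′c *gfdB*. For ASPWEDRAFT_234135 the calls rest on 26 and 42 reads, against 1 read in untreated cultures (ratios of 35.8 and 48.6, 95% exact intervals 5.88 to 1468 and 8.26 to 1965). Its combination libraries, at 2.02, 0 and 0.807 RPKM, overlapped the untreated libraries, at 0, 0.0789 and 0 RPKM. The calls under the combination and under sorbitol held in 8 and 10 of the 12 fits without 1 library. ASPWEDRAFT_233835 rose by 2.41 ± 0.69 and 3.22 ± 0.66, and ASPWEDRAFT_44876 by 2.71 ± 0.63 and 2.81 ± 0.62 (edgeR, adjusted p = 0.0182, 0.00323, 0.00655 and 0.00463). ASPWEDRAFT_34275, the untested gene, had 3 reads under the combination and 13 under sorbitol, against 3 in untreated ′c *gfdB*, for ratios of 1.38 (0.184 to 10.3) and 5.02 (1.38 to 27.4), while in CBS141173 it had 9.49, 6.22 and 9.88 RPKM under NaCl + sorbitol against 2.63, 3.02 and 0.817 RPKM untreated.

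Among the genes with the largest fitted change in ′c *gfdB* whose combination and untreated libraries did not overlap, ASPWEDRAFT_562645 had 4.88, 11.8 and 5.42 RPKM under NaCl + sorbitol, 3.74, 3.42 and 3.92 RPKM under sorbitol, 1.99, 1.83 and 0.989 RPKM under NaCl, and 0.909, 0.928 and 0.951 RPKM untreated. It rose by 2.99 ± 0.35 under the combination and by 2.00 ± 0.35 under sorbitol (edgeR, adjusted p = 0.000179 and 0.00141). ASPWEDRAFT_111730 and ASPWEDRAFT_167949 rose by 2.96 ± 0.88 and 2.79 ± 0.51 under the combination (adjusted p = 0.0212 and 0.00177), with 2.35 ± 0.88 and 1.27 ± 0.56 under sorbitol (adjusted p = 0.0502 and 0.0906). ASPWEDRAFT_41105 was called in both, on 41 and 17 reads, against 3 in untreated cultures, ratios of 18.8 (6.01 to 95) and 6.56 (1.90 to 34.9).

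In ′c *gfdB*, 3 of the 95 genes were called higher under NaCl and 1 lower under sorbitol. ASPWEDRAFT_51819 rose under each treatment, with 13.2, 23.5 and 15.7 RPKM under NaCl + sorbitol, 16.9, 21.4 and 15.5 RPKM under sorbitol, 9.86, 17.5 and 12.5 RPKM under NaCl, and 3.63, 3.68 and 3.13 RPKM untreated. The log2 fold changes were 2.35 ± 0.28, 2.38 ± 0.28 and 1.97 ± 0.28 (edgeR, adjusted p = 0.000181, 0.000182 and 0.00018), and the treated groups overlapped each other. ASPWEDRAFT_138454 was called under sorbitol (2.65 ± 0.49, adjusted p = 0.00182) and NaCl (1.87 ± 0.50, adjusted p = 0.00916) and had 1.34 ± 0.53 under the combination (adjusted p = 0.0645), all at under 2 RPKM.

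ASPWEDRAFT_48111 ran the other way. Its level in ′c *gfdB* was 42.2, 36.8 and 38.4 RPKM under NaCl + sorbitol, 15.4, 25.5 and 27.4 RPKM under sorbitol, 9.29, 15.7 and 7.25 RPKM under NaCl, and 56.6, 45.0 and 41.0 RPKM untreated. It fell by 1.05 under sorbitol and by 2.13 under NaCl (SE 0.28 and 0.29; edgeR, adjusted p = 0.0127 and 0.000151), and the change of -0.25 ± 0.28 under the combination did not pass the test (adjusted p = 0.501). In CBS141173 it had 19.1, 10.5 and 11.6 RPKM under NaCl + sorbitol, 6.47, 4.47 and 3.24 RPKM under sorbitol, 6.45, 6.89 and 6.54 RPKM under NaCl, and 5.55, 7.91 and 4.71 RPKM untreated. ASPWEDRAFT_180212 was called higher under NaCl only (1.10 ± 0.34, adjusted p = 0.0204), with 18.1, 47.1 and 18.8 RPKM under NaCl against 10.9, 14.9 and 14.4 RPKM untreated.

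Set beside each other, the strains had median levels of the 95 genes that were close except under sorbitol. The ratio of mean RPKM, ′c *gfdB* over CBS141173, had a median of 0.919 under NaCl + sorbitol, 2.00 under sorbitol, 0.983 under NaCl and 1.11 in untreated cultures. Under sorbitol 81 of the 95 ratios were above 1, and for 52 genes the lowest ′c *gfdB* library lay above the highest CBS141173 library. These values are a description, since the CBS141173 sorbitol libraries chose the genes. The ratios were not taken over all genes, so a strain difference across all genes cannot be told apart from one in this set. At the other end, 8 genes had under 0.1 times the CBS141173 level in untreated ′c *gfdB*, with no count made over all genes. They were ASPWEDRAFT_102062, ASPWEDRAFT_234135, ASPWEDRAFT_233835, ASPWEDRAFT_34272, ASPWEDRAFT_34275, ASPWEDRAFT_138454, ASPWEDRAFT_41105 and ASPWEDRAFT_44876, with ratios between 0.00615 and 0.0933.

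**Figure D5:**
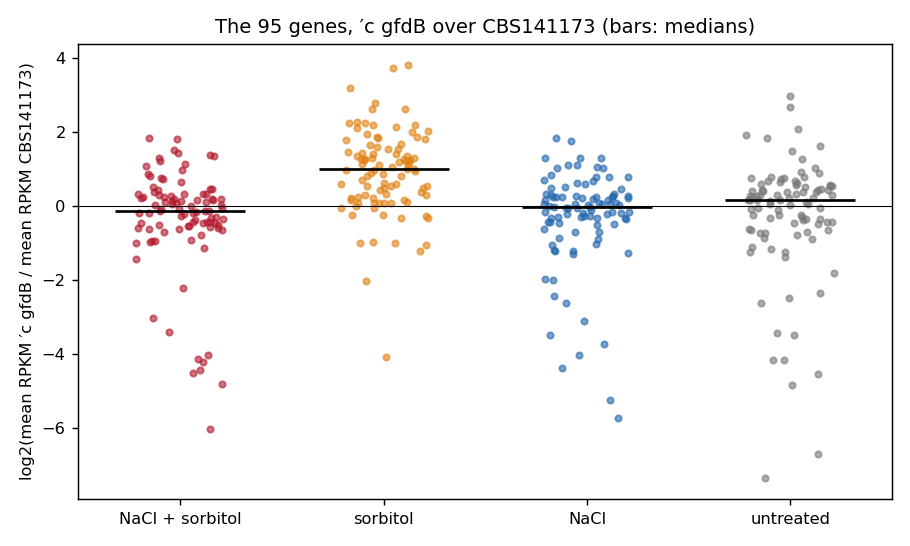
Each point is the log2 ratio of the mean RPKM in ′c *gfdB* to that in CBS141173 for 1 of the 95 genes in 1 treatment, with medians as bars. The medians lie near 0 except under sorbitol, and a separate group of genes lies below -3 under NaCl + sorbitol, under NaCl and in untreated cultures. Ratios of all genes are not drawn.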

How the data were processed

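The authors sequenced TruSeq libraries (single-end, 75 bases), aligned them to FungiDB release 65 genomes (HISAT2 2.1.0), counted reads per gene (featureCounts 2.0.0) to give the deposited counts, and computed the deposited RPKM (edgeR 3.18). The handling of strand and of multiply matching reads is not given in the sources used here. RPKM equals count over length and library total. The doses follow the treatment protocol; the series record swaps the 2 concentrations.

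Counts of the 12 ′c *gfdB* libraries were fitted with edgeR 4.0.16 (R 4.3.3; TMM, filterByExpr, 4 groups of 3, quasi-likelihood F-test, Benjamini-Hochberg over all genes tested), and a call needed an adjusted p under 0.05 and a change over 2-fold. SE is the log2 fold change over the square root of F. Steps were tested on simulated data. Alternatives used DESeq2 1.42.0, all 24 *A. wentii* libraries, no TMM, no filter, a replicate block and single libraries left out. RPKM were taken as deposited, without rescaling.

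The genes and lists were chosen with earlier results of these data known. Named genes were the 10 highest in the CBS141173 combination, the 6 largest L, the 8 largest called changes without overlap in ′c *gfdB*, those called under single stressors against the rest, listed genes and those nearest the limits. Genes called against sorbitol, ASPWEDRAFT_61986, ASPWEDRAFT_656478, ASPWEDRAFT_34275, those under 0.1 times the CBS141173 level and those opposite in the strains were named after their values were seen. *A. wentii* sequences, positions and protein families were not used here.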

Additional observations from a re-analysis of the deposited data

Results flagged for a closer look

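In 13 cases every library of 1 strain lay above, and every library of the other below, the untreated mean of its own strain in the same treatment. The difference between strains was not tested, since the rule used the CBS141173 libraries. Under sorbitol, 8 of the 95 genes were above in ′c *gfdB* and below in CBS141173 (4.01% of all genes). The difference in L, ′c *gfdB* minus CBS141173, was 3.15 for ASPWEDRAFT_102062, 1.46 for ASPWEDRAFT_105815, 1.61 for ASPWEDRAFT_183850, 1.75 for ASPWEDRAFT_234135, 1.15 for ASPWEDRAFT_34275, 1.24 for ASPWEDRAFT_41105, 1.32 for ASPWEDRAFT_45118 and 1.88 for ASPWEDRAFT_77129. Under NaCl + sorbitol, 3 genes were below in ′c *gfdB* and above in CBS141173 (4.87% of all genes), which the rule made possible in that direction only. Their differences were -1.33 for ASPWEDRAFT_48111, -2.07 for ASPWEDRAFT_61986 and -1.49 for ASPWEDRAFT_67954. Under NaCl, ASPWEDRAFT_562645 was above in ′c *gfdB* (0.70) and ASPWEDRAFT_48111 below (-2.16), beside 3.55% and 2.69% of all genes. Except under sorbitol, these shares are at or under those of all genes. The rule kept L for sorbitol under 0.4 in CBS141173, which favours genes below the untreated level there. Sorbitol replicates 2 and 3 of that strain also held less of this RNA. The share under sorbitol is thus a description.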

How the results depend on the processing

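Among the 95 genes, the counts called higher in ′c *gfdB* under the combination and under sorbitol stayed within 1.5 times of 60 and 29 under DESeq2, all 24 libraries, no TMM, no filter and any fold. Leaving out single ′c *gfdB* libraries gave 36 to 64 (36 without untreated replicate 2) and 19 to 38 (19 without untreated replicate 1), and 0 to 1 lower under sorbitol. It gave 2 to 5 higher and 6 to 25 lower under NaCl, 0 to 8 higher and 0 to 1 lower against sorbitol, and 51 to 83 higher and 0 to 1 lower against NaCl. It also gave 11 to 42 positive interactions (42 without NaCl replicate 2) and 2 to 4 negative ones. Between 0 and 8 genes were above all 3 other groups, and 0 to 2 met the rule. Calls over all genes were not counted in these fits.

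Without the 3 ′c *gfdB* NaCl libraries, chosen after seeing the data, 64 genes were called higher under the combination, 39 higher and 2 lower under sorbitol, and 8 higher and 1 lower against sorbitol. Among all genes these counts were 1215, 1448 and 1074, and 134 and 804, with the number of genes tested not recorded. At any fold, 5 genes were higher under NaCl and 2 lower in the combination against NaCl. Replicate numbers did not pair the samples (same-number correlations of deviations -0.212 to 0.177 over 18 pairs, 2 over 0.1). With the replicate block, 59 genes were called higher under the combination, 2 higher against sorbitol and 2 above all 3 other groups.

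The rule gave 95 genes in CBS141173, 60 with a pseudocount of 5, 60 with sorbitol replicate 1 as the only sorbitol library, 52 also without untreated replicate 3, and 79 at the fewest without single libraries. At the most, without untreated replicate 1, it gave 78 of the 95 and 45 others. RPKM rescaled by TMM gave 121, and a pseudocount of 0.1 gave 137 (87 of the 95 and 50 others). In ′c *gfdB* it was met by 2 of the 95 with RPKM rescaled by TMM and by 1 with a pseudocount of 5. The cause of these changes was not tested. Of 47 calls of named genes, 26 held without each ′c *gfdB* library in turn, and no named value given above changed sign. Depth limits the folds of the 9 genes under 0.25 RPKM in untreated ′c *gfdB*, which had 1 to 38 reads there over 3 libraries.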
